A study of Mus musculus with 2 samples.

Results

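The transcripts described here belong to 9 genes that mark whether a lymphocyte stays in a tissue or can leave it, out of 28692 genes in the deposited count tables. They were taken by name: S1pr1, Klf2 and Ccr7 as genes of tissue exit and recirculation, Cd69, Itgae, Itga1, Cxcr6 and Rgs1 as genes of tissue retention, and Il7r as the receptor for a survival cytokine of resident and memory cells. Their raw UMIs (unique molecular identifiers, each standing for 1 captured transcript) were summed for each of the 7 lymphoid clusters among the 13 clusters that the authors deposited, separately in each library. The rule that names them uses no measured value, but it was written with earlier results of these data known, and the order of levels across clusters is given as a description.

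The study collected CD45+ immune cells that an intravenous label showed to be resident in adipose tissue, from wild-type C57BL/6 mice. The control library came from mice on chow and the other from mice fed a ketogenic diet, which is rich in fat and nearly free of carbohydrate, for 1 week. The titles call both groups adult, and the labels give neither an age in weeks nor the sex of the animals nor how many were pooled. Each diet has 1 library, so no test between diets was possible, and every interval below is a 95% interval that covers counting error alone, not the spread between mice.

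The chow library held 4545 cells and 21570910 UMIs and the ketogenic library 5614 cells and 26041785 UMIs, of which the 7 lymphoid clusters made up 2384 and 4451 cells with medians of 2468.5 and 3208 UMIs per cell. Ptprc, the gene of CD45, was read at 133 CPM or more in all 13 clusters of either library (CPM, UMIs per 1000000 UMIs of the same cluster and library), while the adipocyte genes Adipoq and Plin1 together gave 3 UMIs. Summed transcripts of 10 macrophage markers reached 643 to 1512 CPM in the lymphoid clusters of the chow library and 126 to 469 CPM in those of the ketogenic library, against 24793 and 28150 CPM in the macrophage-like cluster itself. Folr2 was at 0 in 6 of the 7 lymphoid clusters in each library. The part of these transcripts in the differences between diets was not tested as a cause, and values without the cells that carry them are given where they differ. The libraries shared 41 cell barcodes, 3 of them in the same cluster.

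Lymphocytes leave a tissue by following sphingosine-1-phosphate, which is scarce in tissue and abundant in blood and lymph, through the receptor S1PR1. The transcription factor KLF2 drives S1pr1, and CCR7 steers cells that respond to CCL19 and CCL21 into lymphatic vessels and lymph nodes. CD69 binds S1PR1 and removes it from the cell surface, CXCR6 responds to the membrane-bound chemokine CXCL16, the integrins CD103 (Itgae) and CD49a (Itga1) tether cells to E-cadherin and to collagen, and RGS1 dampens signalling downstream of chemokine and S1P receptors.

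The 9 genes lie on different chromosomes except for Ccr7 and Itgae, in GRCm38 with GENCODE M21 annotation. S1pr1 is at chr3:115710433-115715072 (minus strand), Klf2 at chr8:72319033-72321656 (plus), Ccr7 at chr11:99144196-99155077 (minus), Cd69 at chr6:129267325-129275436 (minus) and Itgae at chr11:73090583-73147446 (plus). Itga1 is at chr13:114953096-115101964 (minus), Cxcr6 at chr9:123806475-123811760 (plus), Rgs1 at chr1:144242296-144249242 (minus) and Il7r at chr15:9505788-9530176 (minus). The UMIs were counted per gene, so they do not separate isoforms.

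Promoter sequence was matched for 4 of the 9 genes (Klf2, Itga1, Cxcr6 and Il7r). The 2 printed here belong to Klf2, which was read at like levels in lymphoid and myeloid clusters, and to Cxcr6, which was mainly lymphoid and higher in the ketogenic library in each lymphoid cluster. They are RefSeq sequence of build GRCm38.p6, on the plus strand, ending at the base before the annotated gene start, with CG dinucleotides in capitals.
Klf2, chr8:72318812-72319032: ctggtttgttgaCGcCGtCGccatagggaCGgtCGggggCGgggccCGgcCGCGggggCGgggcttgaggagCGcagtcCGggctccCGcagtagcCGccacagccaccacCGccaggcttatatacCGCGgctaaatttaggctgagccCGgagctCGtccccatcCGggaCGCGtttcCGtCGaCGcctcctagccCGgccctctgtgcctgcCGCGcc
Cxcr6, chr9:123806227-123806474: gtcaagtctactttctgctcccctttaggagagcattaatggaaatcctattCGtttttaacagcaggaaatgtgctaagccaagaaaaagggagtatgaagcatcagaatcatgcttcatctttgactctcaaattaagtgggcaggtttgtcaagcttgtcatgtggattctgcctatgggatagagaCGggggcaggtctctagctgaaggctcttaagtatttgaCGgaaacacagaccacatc
The Klf2 stretch has 28 CG dinucleotides in 221 bases, and the Cxcr6 stretch 3 in 248 bases. Over 32851 RefSeq promoters of 250 bases, the median was 6 CG dinucleotides. Letters searched on both strands were CACCC (KLF factors), TGNGGT (RUNX factors) and GTAAACA (FOXO factors), which occurred in 52.0%, 40.1% and 3.17% of those promoters. In the same 250-base window the Klf2 promoter held CACCC once, not wholly inside the printed bases, which leave out the 29 after the gene start, and 29 CG dinucleotides, and the Cxcr6 promoter held TGNGGT once and 3 CG dinucleotides. These matches describe the letters and say nothing of binding.

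The 7 lymphoid clusters were named from marker genes, counted as present in a cluster when they stood at least 2-fold above the other cells with 20 CPM added. Cluster 0 was ILC2-like (8 of 9 group 2 innate lymphoid cell markers), cluster 1 NK-like (9 of 9), cluster 7 regulatory T-like (6 of 6, with 6 of 9 ILC2 markers as well) and cluster 11 γδ T-like (9 of 10). Cluster 2 was T-like, with all 7 markers on each of the CD4 and CD8 lists, and cluster 9 B and plasma-like, with 7 of 7 and 6 of 6. Cluster 4 carried 5 of 7 CD4, 5 of 7 CD8 and 3 of 9 NK markers and was left unnamed. In chow and ketogenic libraries they held 854 and 1310 cells (cluster 0), 724 and 1062 (cluster 1), 236 and 821 (cluster 2), 269 and 515 (cluster 4), 160 and 328 (cluster 7), 82 and 245 (cluster 9), and 59 and 170 (cluster 11).

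Across lymphoid clusters the members did not share 1 order. S1pr1 stood highest in the T-like cluster 2, Cxcr6 and Il7r in the γδ T-like cluster 11 and the ILC2-like cluster 0, and Cd69 in the regulatory T-like and ILC2-like clusters. Between diets, Cxcr6 and Rgs1 were higher in the ketogenic library in 7 of 7 clusters, and S1pr1 was lower in 6 of 7. Of the 8944 genes with 100 UMIs in the lymphoid clusters, 13.3% were higher in 7 of 7 and 12.3% were lower in 6 or 7 of 7, and the median log2 ratio of all genes was above 0 in each cluster, from 0.04 in cluster 1 to 0.50 in cluster 9. Without cells of 3 or more macrophage marker UMIs, Rgs1 had log2 ratios of -0.03 in clusters 0 and 7. Of the 63 gene and cluster pairs, 37 had at least 100 UMIs over both libraries, and 1 of these 37 was at least 2-fold higher in the ketogenic library and none at least 2-fold lower. Over every gene with 100 UMIs in the 7 clusters, 2.36% of gene and cluster pairs were at least 2-fold higher and 1.02% at least 2-fold lower. By cluster the higher share was 0.759% in cluster 0, 0.514% in cluster 1, 2.31% in cluster 2, 0.986% in cluster 4, 1.57% in cluster 7, 15.2% in cluster 9 and 1.31% in cluster 11. The lower share ran from 0.525% in cluster 11 and 0.826% in cluster 2 to 1.27% in cluster 9, with 1.11%, 1.05%, 1.09% and 1% in clusters 0, 1, 4 and 7.

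**Figure D1:**
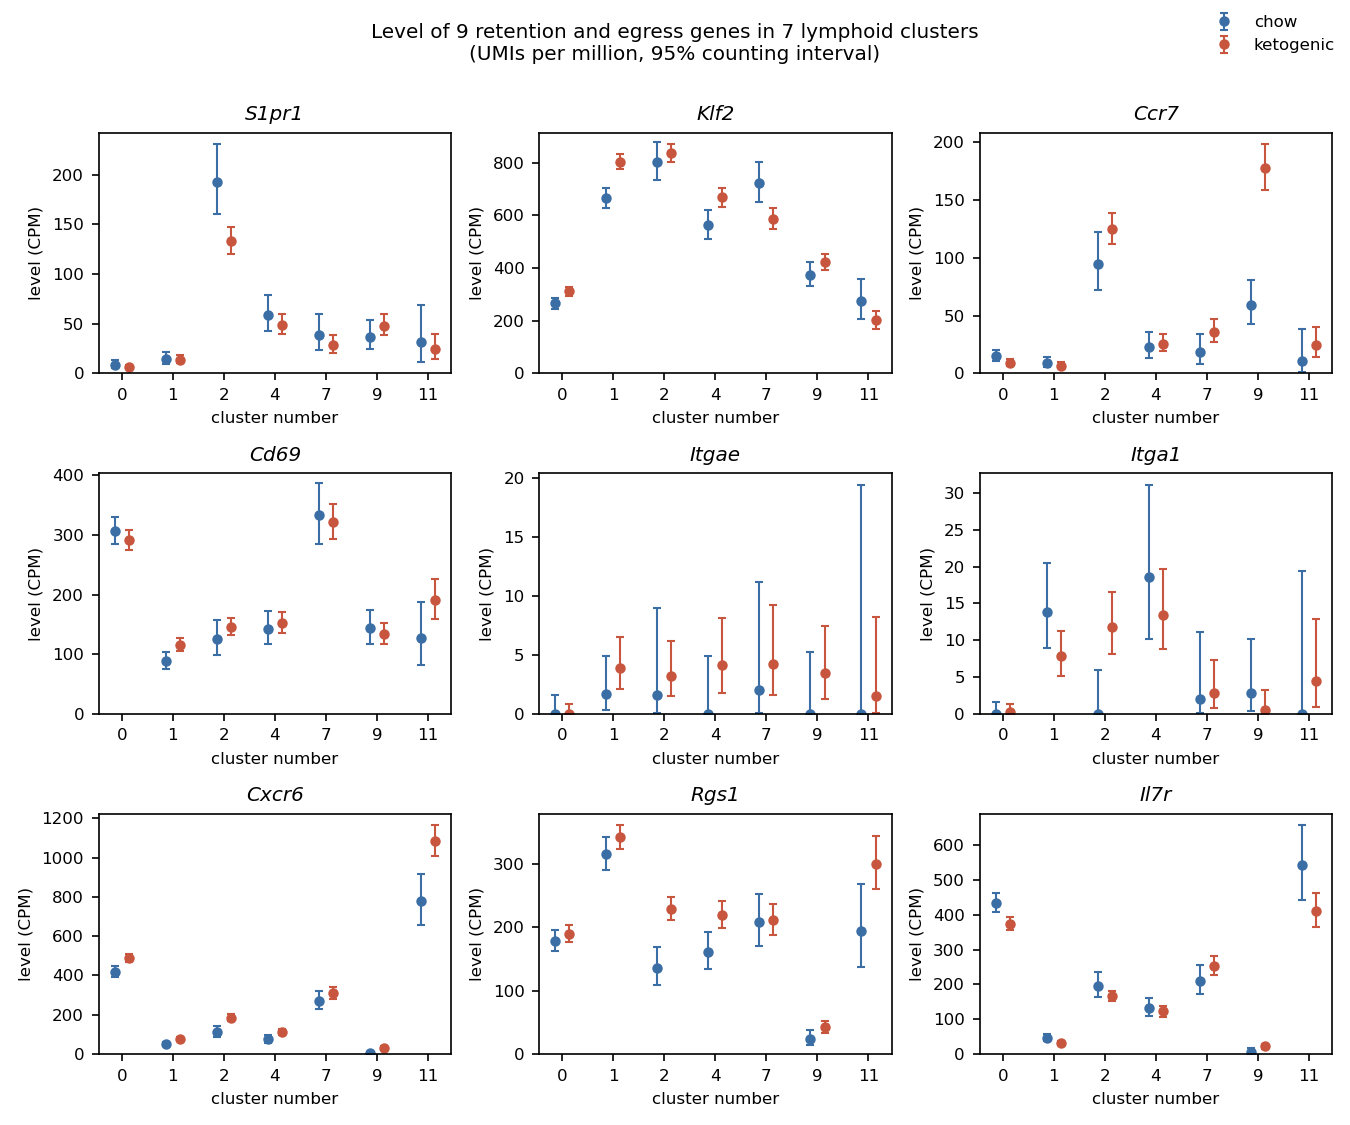
Level of each of the 9 genes (vertical axis, CPM) in the 7 lymphoid clusters (horizontal axis) in the chow and ketogenic libraries, 1 panel per gene, with 95% counting intervals as bars. S1pr1 is highest in cluster 2 at 193 and 133 CPM, and Cxcr6 is highest in cluster 11 at 779 and 1085 CPM.

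S1pr1, the exit receptor, gave 1073 UMIs in the series, of which 88.0% were in lymphoid clusters. In cluster 2 it was at 193 CPM (120 UMIs) with chow and 133 CPM (371 UMIs) with the ketogenic diet, 1.45-fold lower (interval 1.17 to 1.79). In no other lymphoid cluster did the S1pr1 interval exclude equality. The log2 ratio of -0.54 was -0.21 among cells of cluster 2 with at least 3000 UMIs. In the other clusters S1pr1 went from 58.4 and 49.0 CPM in cluster 4 down to 8.83 and 5.96 CPM in cluster 0, with chow first. Cluster 9 had 36.8 and 47.8 CPM, cluster 7 had 38.1 and 28.3 CPM, and cluster 11 had 31.6 and 24.9 CPM, and the ranges of clusters 9 and 7, and of 7 and 11, overlapped. NK-like cells of cluster 1 lay apart from these at 14.5 and 13.6 CPM.

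Cluster 2 held 45.8% of the lymphoid S1pr1 UMIs with chow and 54.4% with the ketogenic diet. Its share of lymphoid cells was 9.90% and 18.4%. A sum over the lymphoid clusters therefore mixes the level per cluster with the make-up of the sample. With each cluster given the same weight in both libraries, S1pr1 went from 46.7 to 35.2 CPM, a log2 ratio of -0.41 (interval -0.62 to -0.19). Without weights the sum went from 37.7 to 41.2 CPM, the opposite direction. Among the 8944 genes the weighted log2 ratio had a median of 0.05, with 5% of genes below -0.63 and 5% above 0.59. At least 2-fold higher were 0.537% of these genes and 1.41% were at least 2-fold lower, and no member with 100 UMIs was among them.

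Counted per cell after every cell was thinned to 1000 UMIs, S1pr1 was found in 16.9% of cluster 2 cells with chow (interval 12.4 to 22.4) and 11.4% with the ketogenic diet (9.35 to 13.8). Unthinned, the shares were 33.1% and 29.5% at medians of 2374 and 2993 UMIs per cell. The thinned shares were 0.466% and 0.690% in the macrophage-like cluster 3, whose cell type can express the receptor, and 0% and 0.282% in the dendritic-like cluster 6, where 3 of the 307 chow cells would be 0.977% and the exact upper limit was 1.19%. The ILC2-like shares of 0.703% (0.258 to 1.52) and 0.611% (0.264 to 1.20) had intervals that overlapped those of both clusters.

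Klf2, the transcription factor upstream of S1pr1, was read in every cluster, and 44.9% of its 28990 UMIs were lymphoid. In cluster 2 it stood at 804 and 837 CPM, a ratio of 1.04 (0.945 to 1.15), beside the lower S1pr1 there. In the NK-like cluster it was at 666 CPM with chow and 804 CPM with the ketogenic diet, 1.21-fold higher (1.13 to 1.29). Cluster 4 went from 564 to 668 CPM and the ILC2-like cluster from 266 to 311 CPM. The regulatory T-like cluster went the other way, from 723 to 586 CPM, 1.23-fold lower (1.09 to 1.40). That direction was the opposite, a log2 ratio of 0.49, among cells with at least 3000 UMIs. The weighted lymphoid level was 522 and 581 CPM, a log2 ratio of 0.15 (0.10 to 0.21), which was 0.01 without cells holding 3 or more macrophage marker UMIs.

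Outside the lymphoid clusters Klf2 was as high as inside them, with 667 and 471 CPM in the macrophage-like cluster 3 and 610 and 737 CPM in cluster 6, which resembled type 1 conventional dendritic cells. Klf2 levels therefore did not separate lymphoid from myeloid clusters, in either library, whereas S1pr1 UMIs were mainly lymphoid.

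Ccr7, the receptor that leads cells toward lymphatics, gave 3648 UMIs, and 28.0% of them were lymphoid. The mature dendritic-like cluster 12 held 77.8% of the clustered Ccr7 UMIs with chow and 54.1% with the ketogenic diet, at 2829 and 3489 CPM. Among lymphoid clusters it was highest in cluster 9, at 59.5 CPM (42 UMIs) and 178 CPM (312 UMIs), and in cluster 2, at 94.9 CPM (59 UMIs) and 125 CPM (348 UMIs). The ranges of these 2 clusters overlapped. Cluster 9 gave the ratio past 2-fold, 2.99 (2.16 to 4.22), in the cluster with the background share of 15.2%. Without cells of 3 or more macrophage marker UMIs the direction was the opposite, with a log2 ratio of -0.62 in place of 1.56. That step also left out 32 of 33 chow and 16 of 45 ketogenic plasma-like cells, which are described below. The ratio in cluster 2 was 1.32 (0.996 to 1.76).

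Cluster 9 is a mixture, and its parts differed in Ccr7. Plasma-like cells, taken as cells with at least 3 Jchain UMIs per 1000, made up 73.6% of its UMIs with chow and 45.1% with the ketogenic diet, and they held 4 and 0 Ccr7 UMIs. The B-like cells, with a B cell gene UMI and less Jchain, were 49 and 199 cells and had Ccr7 at 204 and 337 CPM, 1.65-fold higher (1.18 to 2.38). In the 24 and 143 B-like cells with fewer than 3 macrophage marker UMIs, Ccr7 was at 420 and 408 CPM, a ratio of 0.972 (0.665 to 1.47). With a minimum of UMIs per cell that both libraries share, the B-like ratio was 2.25 (1.497 to 3.53), in 39 and 199 cells. The difference in cluster 9 thus moved with the share of plasma-like cells and with macrophage transcripts, and their part in it was not tested beyond these values.

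The other exit genes also lay in B-like rather than plasma-like cells. In those B-like cells Klf2 was at 1175 CPM with chow and 748 CPM with the ketogenic diet, a ratio of 0.636 (0.546 to 0.744), and 0.660 without cells of 3 or more macrophage UMIs. S1pr1 was at 134 and 88.6 CPM, a ratio of 0.660 (0.418 to 1.08). Over genes with 100 UMIs in B-like cells, 3.59% were at least 2-fold higher and 1.39% at least 2-fold lower. Against plasma-like cells of the same library, B-like cells had 13.6 and 14.1 times the Klf2 level, where 57.5% and 54.6% of genes were at least 2-fold higher and 9.89% and 5.28% at least 2-fold lower, the genes that define the split left out. Plasma-like cells had Klf2 at 86.6 and 53.1 CPM and 1 S1pr1 UMI in each library, while Cd69 was at 148 and 163 CPM there.

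Cd69, the surface antagonist of S1PR1, gave 5289 UMIs, 86.4% of them lymphoid. Among lymphoid clusters it was highest in the regulatory T-like cluster, at 333 and 322 CPM, and in the ILC2-like cluster, at 306 and 291 CPM. The rest followed at 126 and 191 CPM in cluster 11, 142 and 153 CPM in cluster 4, 143 and 133 CPM in cluster 9 and 125 and 146 CPM in cluster 2. NK-like cells had the lowest level, 88.4 and 115 CPM, and there the ketogenic library was 1.31-fold higher (1.08 to 1.58). That log2 ratio of 0.38 was 1.02, past 2-fold, among cells with at least 3000 UMIs. The weighted lymphoid level was 192 and 199 CPM, a log2 ratio of 0.05 (-0.04 to 0.14), the same as the median over all genes to 2 decimals.

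Cxcr6, the receptor for CXCL16, gave 6322 UMIs, 92.8% of them lymphoid. The γδ T-like cluster 11 had 779 CPM with chow (148 UMIs) and 1085 CPM with the ketogenic diet (740 UMIs), 1.39-fold higher (1.16 to 1.67). The ILC2-like cluster 0 had 419 and 489 CPM, and the regulatory T-like cluster 7 had 271 and 310 CPM, the last with an interval that included equality (0.940 to 1.40). These 3 clusters lay above the rest in both libraries.

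In the T-like cluster 2 Cxcr6 was at 114 CPM (71 UMIs) and 185 CPM (517 UMIs), 1.62-fold higher with the ketogenic diet (1.27 to 2.11). Cluster 4 went from 74.3 to 111 CPM, a ratio of 1.498 (1.11 to 2.05), and the NK-like cluster from 50.1 to 75.7 CPM, a ratio of 1.51 (1.19 to 1.94). Cxcr6 was thus higher in the ketogenic library in 7 of 7 clusters, with intervals above 1 in 6. Being higher in 7 of 7 with at least 6 intervals above 1 held for 1.65% of the 8944 genes. That share also moves with abundance, since genes near 100 UMIs have wide intervals, and Cxcr6 had 5869 lymphoid UMIs. The ratio in cluster 4 was past 2-fold, a log2 ratio of 1.52, among cells with at least 3000 UMIs. Cluster 9 was among the 6 intervals above 1, with 3 and 54 Cxcr6 UMIs. Of the 54, 40 came from cells that also held a Cd3 UMI, and cells without a Cd3 UMI held 1 and 14. A Cd3 UMI was also held by 30.4% and 25.3% of the cells of that cluster without a Cxcr6 UMI. With equal weights the lymphoid level was 219 and 277 CPM, a log2 ratio of 0.33 (0.25 to 0.42), and 79.8% of the 8944 genes had a lower ratio. Each ratio was under 2-fold in the clusters with 100 UMIs.

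The thinned share of cluster 2 cells with a Cxcr6 UMI was 10.2% (6.63 to 14.8) with chow and 15.7% (13.3 to 18.4) with the ketogenic diet, and unthinned 21.6% and 32.8%. In cluster 11 the thinned shares were 50.8% and 62.4%, and unthinned 89.8% and 93.5%. Macrophage-like cells gave 1.05% and 1.38% after thinning. The intervals of the 2 diets overlapped in both lymphoid clusters.

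Rgs1, the regulator of G protein signalling, gave 8542 UMIs, 59.3% of them lymphoid. Among lymphoid clusters it was highest in the NK-like cluster, at 316 and 343 CPM. The T-like cluster 2 went from 137 CPM (85 UMIs) to 230 CPM (641 UMIs), 1.68-fold higher (1.34 to 2.13). In the γδ T-like cluster it was at 195 and 300 CPM, a ratio of 1.54 (1.08 to 2.25), and in cluster 4 at 162 and 220 CPM, a ratio of 1.36 (1.11 to 1.67). The ILC2-like, NK-like and regulatory T-like clusters had ratios of 1.06, 1.08 and 1.01, with intervals that included 1. Rgs1 was at the same time read outside lymphoid cells, with 408 and 679 CPM in the mature dendritic-like cluster. Its weighted lymphoid level was 204 and 239 CPM, a log2 ratio of 0.23 (0.14 to 0.32).

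Itgae and Itga1, the retention integrins, were sparse. Itgae gave 271 UMIs in the series and 49 in lymphoid clusters, 5 with chow and 44 with the ketogenic diet, and none in the ILC2-like cluster, where 3 counts would be 1.26 CPM in the chow library. No lymphoid cluster reached 100 Itgae UMIs, so no difference could be read. Its UMIs lay mainly in the type 1 dendritic-like cluster 6, at 23.8 and 39.9 CPM (58 and 139 UMIs).

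Itga1 gave 138 lymphoid UMIs, 42 and 96. With chow, 25 lay in the NK-like cluster and 14 in cluster 4. With the ketogenic diet, 33 lay in cluster 2, 28 in the NK-like cluster and 26 in cluster 4. The level was 18.6 and 13.4 CPM in cluster 4. It was 13.9 and 7.79 CPM in the NK-like cluster, a ratio of 0.560 (0.315 to 1.002). In cluster 2 Itga1 had 0 UMIs with chow and 33 UMIs with the ketogenic diet. Against a floor of 3 counts in the chow cells of that cluster, which is 4.83 CPM, the ketogenic level of 11.8 CPM was at least 2.45-fold higher, and the exact interval of the ratio, which also covers the counting error of the 33 UMIs, began at 1.89. The pair is under the minimum of 100 UMIs. Of the 33 UMIs, 32 were in cells without an S1pr1 UMI.

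Il7r, the receptor chain for interleukin-7, gave 5255 UMIs, 89.1% of them lymphoid. It was lower in the ketogenic library where it was highest: 542 and 412 CPM in the γδ T-like cluster, 1.32-fold lower (1.04 to 1.66), and 435 and 375 CPM in the ILC2-like cluster, 1.16-fold lower (1.07 to 1.26). The ranges of these 2 clusters overlapped. The NK-like cluster had 46.2 and 32.5 CPM, 1.42-fold lower (1.06 to 1.89). Cluster 2 had 196 and 166 CPM, and the regulatory T-like cluster had 211 and 254 CPM, both with intervals that included equality. With equal weights the lymphoid level was 230 and 201 CPM, a log2 ratio of -0.20 (-0.29 to -0.11), and -0.06 among cells with at least 3000 UMIs. Cxcr6 and Il7r therefore ran in the same order over clusters but in opposite directions between diets in clusters 0, 1, 2, 4 and 11, with Il7r intervals that included equality in clusters 2 and 4.

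**Figure D2:**
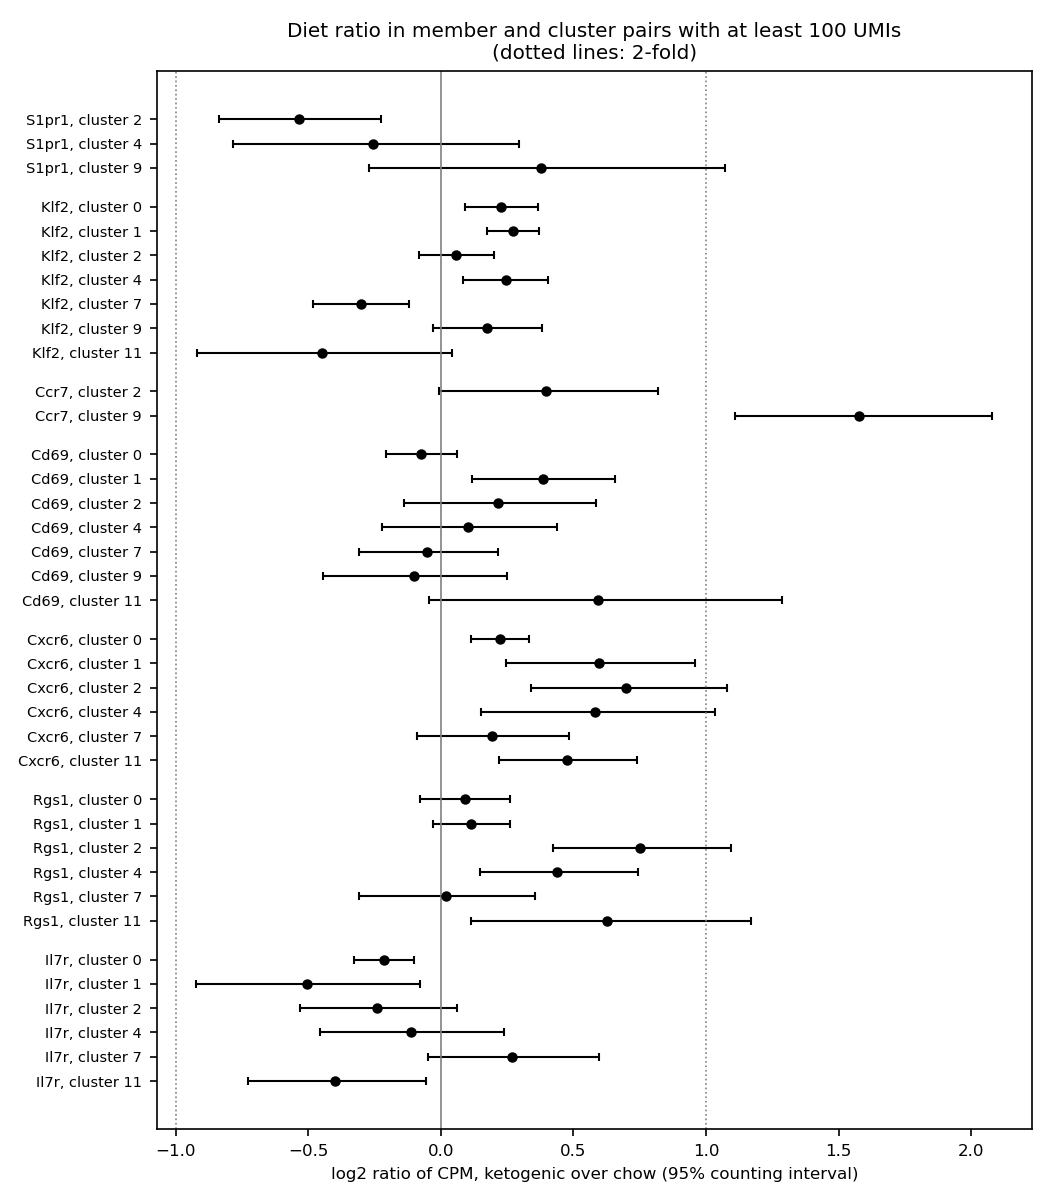
Log2 ratio of the ketogenic over the chow CPM (horizontal axis) for the 37 gene and cluster pairs with at least 100 UMIs, with 95% counting intervals as bars and dotted lines at 2-fold. The Ccr7 point of cluster 9, at a ratio of 2.99, lies beyond the upper 2-fold line, and S1pr1 in cluster 2, at 0.689, lies below equality.

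The cells of the T-like cluster 2 were split by whether they held an S1pr1 UMI: 78 with and 158 without in the chow library, 242 with and 579 without in the ketogenic library, at medians of 2546 and 2290 UMIs and of 3329 and 2880 UMIs. Ccr7 was at 152 against 65.8 CPM in chow cells, a ratio of 2.30 (1.34 to 3.99), and at 207 against 85.1 CPM in ketogenic cells, a ratio of 2.44 (1.96 to 3.03). Klf2 was higher in cells with S1pr1 by 1.48-fold (1.23 to 1.77) and 1.28-fold (1.18 to 1.40), and Il7r by 1.54-fold (1.06 to 2.24) and 1.74-fold (1.44 to 2.09). The split thus separated cells in the same direction for these 3 genes in both libraries.

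Cxcr6 was lower in the cells with S1pr1, at 75.7 against 134 CPM in the chow library, a ratio of 0.565 (0.302 to 1.0002). In the ketogenic library it was at 73.9 against 239 CPM, a ratio of 0.309 (0.235 to 0.400). Rgs1 had ratios of 0.637 and 0.407 and Cd69 of 0.715 and 0.634, chow first. For these 2 genes the chow intervals included equality and the ketogenic ones did not. Among all genes with 100 UMIs in the cluster, S1pr1 left out, 0% of 716 in the chow library and 0.316% of 3166 in the ketogenic library were at least 2-fold higher in the cells with S1pr1, and 0.279% and 1.58% at least 2-fold lower. In the chow library Klf2 and Il7r were the members that reached 100 UMIs, so the chow shares do not cover Ccr7, Cxcr6, Rgs1 and Cd69.

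Genes outside the 9 were counted on the same split when they had 20 UMIs in the cluster, and those named here were picked after their values were seen. Of the 14 naive and recirculation genes, 3 in the chow library and 9 in the ketogenic library were higher in cells with S1pr1, by intervals above 1, and 1 and 2 were lower. Over every gene with 20 UMIs in the cluster, the interval lay above 1 for 3.73% and 4.26% and below 1 for 4.42% and 8.38%. An interval excludes equality at smaller ratios for abundant genes, so the counts also move with a list's level. Lef1, a transcription factor of naive T cells, was 3.62-fold and 1.82-fold higher. Of the tissue residency genes, none was higher by its interval, while 5 of 10 with chow and 8 of 15 with the ketogenic diet were lower. Xcl1, a chemokine of resident and cytotoxic lymphocytes, had ratios of 0.243 and 0.159.

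Immediate early genes, which tissue dissociation also induces, moved with the split. Of these, 7 of 14 with chow and 12 of 16 with the ketogenic diet were lower in cells with S1pr1 by their intervals, and none was higher. Fos had ratios of 0.606 and 0.458 and Dusp1 of 0.394 and 0.565. Their part in the split was not tested. Cells and not animals were compared here, so these values describe 2 libraries.

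**Figure D3:**
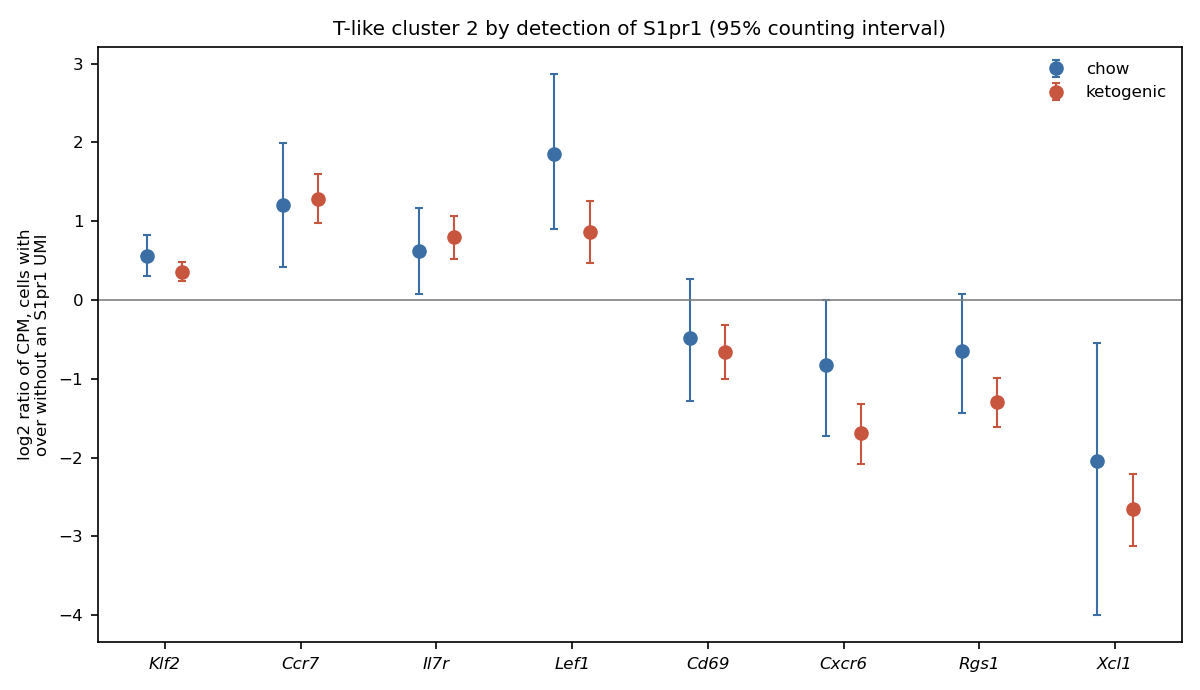
Cells of the T-like cluster 2 with an S1pr1 UMI against those without: log2 ratio of CPM (vertical axis) for 8 genes (horizontal axis), in the chow and ketogenic libraries, with 95% counting intervals as bars. Ccr7 lies above equality at 2.30 and 2.44 and Cxcr6 below it at 0.565 and 0.309.

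In cluster 4, with 36 and 71 cells holding an S1pr1 UMI, Il7r was 2.64-fold (1.66 to 4.10) and 2.01-fold (1.48 to 2.69) higher in them and Ccr7 was 4.04-fold higher (2.19 to 7.33) in the ketogenic library, with too few chow UMIs to compare. Rgs1 had ratios of 0.610 (0.296 to 1.13) and 0.438 (0.293 to 0.631) and Cxcr6 of 1.03 (0.419 to 2.19) and 0.600 (0.363 to 0.944). Klf2 was at 1.36 (1.05 to 1.75) and 1.07 (0.920 to 1.24), and Cd69 at 1.16 (0.649 to 1.97) and 1.13 (0.819 to 1.54). Over all genes with 20 UMIs there, 2.996% and 2.97% had intervals above 1 and 3.23% and 4.79% below. A split by Cd69, a retention gene, did not put Klf2, an exit gene, on the other side. Tissue dissociation can induce both genes, and its part in this split was not tested. Only Klf2 is given for it here. Klf2 was higher in cells with a Cd69 UMI by 2.62-fold (2.09 to 3.31) and 2.23-fold (1.89 to 2.64) in the regulatory T-like cluster, where 0.78% and 0.8% of genes with 100 UMIs were at least 2-fold higher and 2.5% and 0.171% at least 2-fold lower. It was higher by 1.61-fold (1.41 to 1.84) and 1.73-fold (1.61 to 1.87) in the NK-like cluster, where 0.046% and 0.0257% of genes were at least 2-fold higher and 0.276% and 0.0515% lower. In the ILC2-like cluster it was higher by 1.46-fold (1.24 to 1.72) and 1.26-fold (1.13 to 1.41), where 0.158% and 0.0478% of genes were at least 2-fold higher and 0% and 0.0717% lower.

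Cluster 2 could be divided further by coreceptor transcripts, into 46 and 206 cells with a Cd8 but no Cd4 UMI and 56 and 212 cells with Cd4 but no Cd8. In the CD8 cells Cxcr6 was at 42.6 CPM (6 UMIs) with chow and 225 CPM (169 UMIs) with the ketogenic diet, 5.28-fold higher (2.37 to 14.6), although 3 of the 6 chow UMIs came from 1 cell. Rgs1 was at 35.5 CPM (5 UMIs) and 195 CPM (147 UMIs), 5.51-fold higher (2.31 to 17.2). Among genes with 100 UMIs in the CD8 cells, 2.48% were at least 2-fold higher and 0.993% at least 2-fold lower. Without cells of 3 or more macrophage UMIs, 35 and 199 CD8 cells remained, with ratios of 10.5 (2.85 to 87.2) for Cxcr6 and 6.41 (2.15 to 31.4) for Rgs1. With the shared minimum of UMIs per cell, 40 and 206 cells gave ratios of 4.85 and 6.33.

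Cd69 in CD8 cells was at 99.3 and 175 CPM, a ratio of 1.77 (1.02 to 3.32), and Itga1 had 0 and 13 UMIs. S1pr1 was at 170 and 109 CPM, a ratio of 0.640 (0.402 to 1.06). Ccr7 was at 156 and 165 CPM and Il7r at 156 and 158 CPM, both nearly level. Outside the 9 genes, Xcl1 in CD8 cells went from 56.7 to 171 CPM, and Dapl1, a marker of naive and memory precursor CD8 cells, from 376 to 207 CPM. The higher Cxcr6 and Rgs1 thus stood beside lower Dapl1 and level Ccr7 in these cells.

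S1pr1 in CD4 cells was at 278 CPM with chow and 160 CPM with the ketogenic diet, a ratio of 0.574 (0.396 to 0.850), and Il7r at 264 and 149 CPM, a ratio of 0.566 (0.386 to 0.848). Ccr7 was at 51.2 CPM (7 UMIs) and 152 CPM (115 UMIs), 2.96-fold higher (1.39 to 7.53). Of the retention genes, Cxcr6 was at 139 and 161 CPM and Rgs1 at 183 and 215 CPM. Cd69 was at 58.6 CPM (8 UMIs) and 109.6 CPM (83 UMIs), a ratio of 1.87 (0.907 to 4.48). Among genes with 100 UMIs in the CD4 cells, 2.66% were at least 2-fold higher and 0.888% at least 2-fold lower. Without cells of 3 or more macrophage UMIs the S1pr1 ratio was 0.514 and the Il7r ratio 0.557, while Ccr7 rested on 2 chow UMIs. Whether the CD4 and CD8 differences between diets differ from each other was not tested.

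In the chow library CD4 cells had 3.27 times the Cxcr6 level and 5.16 times the Rgs1 level of CD8 cells, and in the ketogenic library 0.717 and 1.10 times. The 129 and 392 cluster 2 cells with neither coreceptor transcript had Rgs1 at 165 and 265 CPM, a ratio of 1.61, and 0 and 18 Itga1 UMIs. The chow subsets are small, and their intervals are correspondingly wide.

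**Figure D4:**
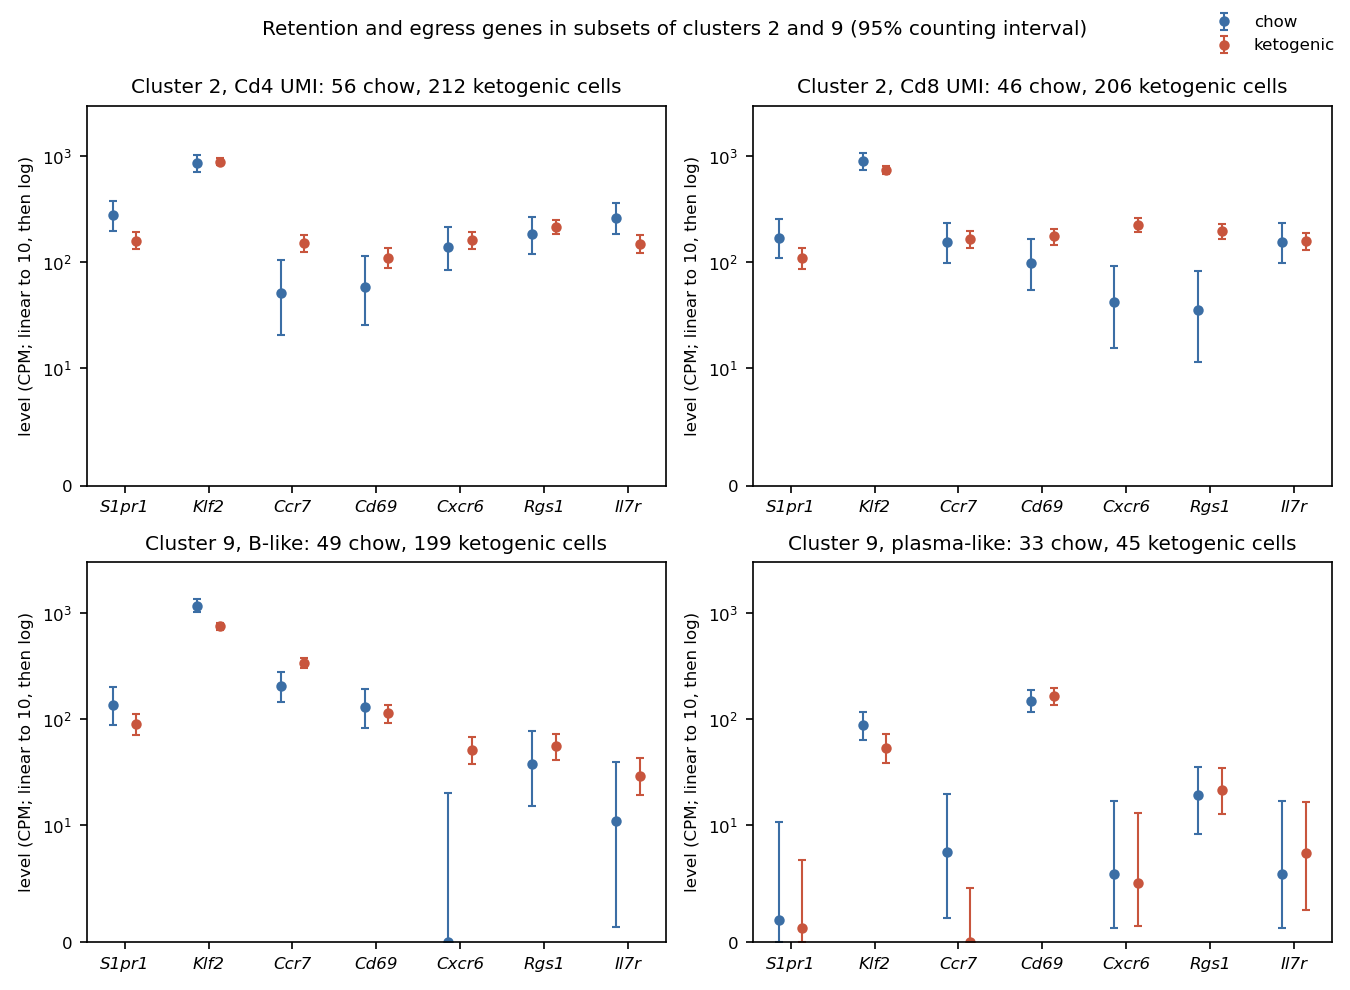
CPM of the member genes (vertical axis, linear to 10 and logarithmic above) in CD4 and CD8 cells of cluster 2 and in B-like and plasma-like cells of cluster 9, in the chow and ketogenic libraries, with 95% counting intervals as bars. In CD8 cells Cxcr6 goes from 42.6 to 225 CPM and Rgs1 from 35.5 to 195 CPM, while Ccr7 is at 156 and 165 CPM.

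NK-like cells fell into those with a transcript of a Ly49 receptor, which marks mature conventional NK cells, and those without. The 539 and 848 cells with a Ly49 UMI had 0.393 and 0.366 times the Cxcr6 level of the 185 and 214 cells without, and 0.333 and 0.349 times their Il7r level. Apart from the Ly49 genes, 0.784% and 0.979% of genes were at least 2-fold higher in cells with Ly49 and 0.323% and 0.747% at least 2-fold lower. With chow, Cxcr6 (90 UMIs) and Il7r (83 UMIs) were under the 100 UMIs those shares require. Cxcr6 was higher in the ketogenic library in both kinds, from 89.5 to 152 CPM without Ly49 (ratio 1.70, 1.19 to 2.47) and from 35.2 to 55.7 CPM with it (ratio 1.58). Itga1, which marks tissue-resident NK and group 1 innate lymphoid cells, had 10 and 3 UMIs in the cells without Ly49 (20.3 and 4.04 CPM) and 15 and 25 UMIs in those with it (11.5 and 8.76 CPM). The ratio of cells with Ly49 over those without was 0.564 (0.237 to 1.40) and 2.17 (0.661 to 11.2), and both intervals included equality. Between diets, 0.509% of genes with 100 UMIs were at least 2-fold higher and 0.902% at least 2-fold lower in cells with Ly49, and 0.522% and 1.04% in cells without.

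The regulatory T-like cluster held 48 and 100 cells with a UMI of Foxp3, the transcription factor that defines regulatory T cells, and 112 and 228 without. Klf2 was at 779.8 and 703 CPM in the cells with Foxp3, a ratio of 0.902 (0.708 to 1.16), and at 706 and 539 CPM in those without, a ratio of 0.764 (0.659 to 0.887). Cxcr6 was at 310.2 and 249 CPM with Foxp3 and at 259.5 and 334 CPM without, where the ratio was 1.29 (1.03 to 1.63). The lower Klf2 of this cluster thus had an interval below equality in the cells without a Foxp3 UMI, and the difference between the parts was not tested. Among genes with 100 UMIs in cells with Foxp3, 2.49% were at least 2-fold higher and 1.46% at least 2-fold lower.

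In the γδ T-like cluster, 45 and 96 cells held a UMI of Trdc, the constant gene of the δ chain. Cxcr6 was at 848 and 1303 CPM in these cells, a ratio of 1.54 (1.25 to 1.90), and Rgs1 at 187 and 371 CPM, a ratio of 1.99 (1.30 to 3.15). Among genes with 100 UMIs in them, 0.447% were at least 2-fold higher and 0.745% at least 2-fold lower. In the 14 and 74 cells without a Trdc UMI, Cxcr6 was at 591 CPM (30 UMIs) and 840 CPM (270 UMIs). Rgs1 was at 217 CPM (11 UMIs) and 221 CPM (71 UMIs) there, on few chow cells. The whole cluster had ratios of 1.39 for Cxcr6 and 1.54 for Rgs1.

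Other genes of the same pathways were counted on lists chosen with earlier results of these data known. On the S1P list, 12 of 13 genes were in the tables, and no more than 4 reached 100 UMIs in any cluster. None of these was at least 2-fold higher or lower in any of the 7 clusters. S1pr4, a receptor of the same family on T and NK cells, was at 105 and 142 CPM in cluster 2, where S1pr1 was lower in the ketogenic library, and at 106 and 145 CPM in cluster 1 and 79.6 and 133 CPM in cluster 4. Gnai2, the G protein subunit that S1PR1 and chemokine receptors signal through, was at 320.1 and 359.8 CPM in cluster 2. Of the 14 naive and recirculation genes, all 14 reached 100 UMIs in cluster 2, 5 of them were higher in the ketogenic library, and their median log2 ratio was -0.17 beside 0.09 for all genes there. Ly6c2 was 2-fold higher in the regulatory T-like cluster, from 185 to 447 CPM. Itgb7, an integrin chain of gut homing cells that also pairs with CD103, was 2-fold higher in cluster 9, from 49.6 to 102 CPM. In that cluster 15.2% of genes were at least 2-fold higher. In its B-like cells Itgb7 was at 102 and 157 CPM, a ratio of 1.54 (0.949 to 2.63).

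Of the 17 tissue residency genes, 11 reached 100 UMIs in cluster 2, with a median log2 ratio of 0.05 beside 0.09 for all genes. Xcl1 was past 2-fold there, from 57.9 to 222 CPM. Cd44, the hyaluronan receptor of activated lymphocytes, was at least 2-fold lower in the ketogenic library in 3 clusters, at 240 and 118 CPM in cluster 1, 256 and 121 CPM in cluster 4 and 133 and 64.9 CPM in cluster 9. Bhlhe40 was higher in cluster 9, at 22.7 and 61.5 CPM, where 15.2% of genes were at least 2-fold higher. The median of the list was thus close to that of all genes in cluster 2.

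Of the 11 genes of IL-7 receptor signalling, 8 reached 100 UMIs in the regulatory T-like cluster and 7 of these were higher in the ketogenic library, with a median log2 ratio of 0.47 beside 0.08 for all genes. Il2rg, the common cytokine receptor chain that pairs with IL7R, was past 2-fold in cluster 9, at 72.2 and 151 CPM. In that cluster 15.2% of genes were at least 2-fold higher. Il7r itself was lower in the ILC2-like and NK-like clusters while the medians of this list were 0.29 and 0.21 there.

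Immediate early genes bear on Cd69, Klf2 and Rgs1 because tissue dissociation can induce all of these. Of 16 such genes, 14 reached 100 UMIs in cluster 2, where 7 were higher and 7 lower, and the median log2 ratio was 0.04. Egr1 was at least 2-fold lower in the ketogenic library in clusters 2, 4, 7 and 9, with log2 ratios of -1.41, -1.50, -1.19 and -1.51. Hspa1a was higher in clusters 1, 2 and 4, with log2 ratios of 2.50, 1.62 and 1.46. In the γδ T-like cluster Btg2 and Nfkbia were higher, at 363 and 960.1 CPM and at 300.2 and 613 CPM. Lower past 2-fold were also Ier3 in clusters 1 and 7, Atf3 in clusters 1 and 2, and Fosb in cluster 9, with log2 ratios of -2.37, -1.17, -1.30, -1.07 and -1.39. In cluster 1, 3 genes of the list were at least 2-fold lower, of which Ier3 and Atf3 are named. In cluster 11, 10 of the 10 genes on the list with 100 UMIs were higher, with a median log2 ratio of 0.33 beside 0.05 for all genes, in the cluster where Rgs1 had a ratio of 1.54 and Cd69 of 1.51. The part of these genes in the member values was not tested.

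The ligands of the retention and exit receptors were looked up in the same cells. Cxcl16 gave 2544 UMIs and was at 760 and 986 CPM in the mature dendritic-like cluster 12, at 66.7 and 147 CPM in the macrophage-like cluster 3 and at 93.9 and 116 CPM in cluster 6. No lymphoid cluster was above 14.1 CPM. Il7 gave 15 UMIs, Ccl19 gave 1 and Ccl21a gave 2. Ccl19 and Ccl21a have near-identical copies in the mouse genome, so their counts are uncertain.

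The genes whose levels over the 14 lymphoid sums ran most like each member were ranked by Pearson's r on log2(CPM + 10), as a description, since the 7 clusters of a library share its depth and preparation. S1pr1 ran most like Slamf6 (r = 0.93) and Foxo1 (0.91), the latter encoding a transcription factor upstream of Klf2 and Il7r. Ccr7 ran with Gm8369 (0.94) and Btla (0.92), and Klf2 with Gimap7 and Gpr174 (0.91 each). Cxcr6 ran with Itgb7 and Ltb (0.97 each), Cd69 with Pim1 (0.96), Rgs1 with Dnajc1 (0.98) and Il7r with Tmem64 (0.97). Among the members themselves, Cxcr6 and Il7r had r = 0.94, S1pr1 and Ccr7 0.75, and Ccr7 and Rgs1 -0.60.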

How the data were processed

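Each library was prepared with 10x Genomics chemistry, per the labels' protocols. The authors deposited whole-number UMI counts per gene and cell, not normalized, and a table of cells with t-SNE coordinates and 1 cluster number per cell; the coordinates are scores without a unit and were not used, per the file headers. Cell Ranger, Seurat and mm10 are named in the submitters' processing notes, without versions. Of 10159 cells, 10017 had a cluster; the others had at least 5.00% mitochondrial UMIs. GENCODE M21 held 98.8% of the gene identifiers.

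From these counts, UMIs were summed per cluster and library and divided by the sum of all UMIs (CPM), using Python 3.11.15, numpy 2.4.6, scipy 1.17.1 and pandas 2.3.3. Levels carry exact Poisson intervals, ratios exact conditional binomial intervals, shares exact Clopper-Pearson intervals; log2 ratios had 0.5 added to each count. All cover counting error only. A difference was counted when it was at least 2-fold with at least 100 UMIs. With 1 library per diet no p-value was computed. The weighted lymphoid ratio used each cluster's share of lymphoid cells, averaged over the libraries. The intervals and ratios were tested on simulated counts. No doublet caller was run; cells with macrophage UMIs were left out as an alternative.

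Genes outside the members were named when at least 2-fold with 100 UMIs on a pathway list, when they were among the 3 most like a member, or, on lists with none past 2-fold, when they had the most UMIs; genes named for a split of cells were picked after their values were seen. Members, lists and thresholds were chosen with earlier results of these data known. Alternatives covered totals, depth minimums, free RNA, macrophage UMIs, cluster assignment, pseudocount, weights and single cells. Chosen after the data were seen were those for cells of cluster 9 and shared barcodes. The same holds for macrophage UMIs and the shared depth minimum in subsets of clusters. Some genes that these rules name are not reported here.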

Additional observations from a re-analysis of the deposited data

Results flagged for a closer look

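Klf2 differed between diets in opposite directions across clusters. Its log2 ratio of ketogenic over chow was 0.23 in cluster 0, 0.27 in cluster 1 and 0.24 in cluster 4, against -0.30 in cluster 7, each with an interval that excluded equality. The ratio in cluster 7 was 0.49 among cells with at least 3000 UMIs, so the opposition did not hold there. Il7r had log2 ratios of -0.22 in cluster 0, -0.51 in cluster 1 and -0.40 in cluster 11, against 1.53 in cluster 9, where it had 5 and 39 UMIs, 3 and 20 of them in cells that also held a Cd3 UMI; without cells of 3 or more macrophage marker UMIs its levels were 22.3 and 26.7 CPM, in place of 7.08 and 22.2 CPM. With 1 library per diet, these differences between clusters were not tested. Outside the lymphoid clusters, Ccr7 reached 2829 CPM with chow and 3489 CPM with the ketogenic diet in the mature dendritic-like cluster 12, and Itgae reached 23.8 and 39.9 CPM in cluster 6, above every lymphoid level of these genes.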

How the results depend on the processing

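Cxcr6 and Rgs1 kept their direction over the lymphoid clusters under every alternative run, with log2 ratios of 0.29 to 0.35 and 0.19 to 0.28. With a minimum of 3000 UMIs per cell the weighted ratio was 0.25 for Klf2, 0.19 for Cd69 and -0.062 for Il7r, and 4 pairs in place of 1 were at least 2-fold higher (Ccr7 in cluster 9, Cd69 in cluster 1, Cxcr6 in cluster 4 and Rgs1 in cluster 2). With the minimum of UMIs that both libraries share, Klf2 was 0.27. Without cells of 3 or more macrophage marker UMIs, Klf2 was 0.0097 and Ccr7 -0.022, Ccr7 in cluster 9 reversed to -0.62, no pair was at least 2-fold higher (0) and 1, Klf2 in cluster 9, was at least 2-fold lower; this removed 32 of 33 chow and 16 of 45 ketogenic plasma-like cells. Without weights S1pr1 was 0.13, Klf2 0.23 and Ccr7 0.97, which includes the different make-up of the libraries. With 5 added to each count Itgae was -0.45, on 49 UMIs. Pairs at least 2-fold higher numbered 2 with a minimum of 50 UMIs and 7 with none, and 1 was then at least 2-fold lower; the main counts were 1 and 0. Other values stayed within their counting interval in 107 of 117 weighted ratios, 652 of 686 cluster ratios, 909 of 1134 levels and 323 of 331 subset ratios. Shares of cells did so in 99 of 252 cases, since thinning sets them. No paired analysis was possible because each diet has 1 library and no replicate number, and no library could be left out. Itgae and Itga1 are limited by depth in every lymphoid cluster.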
